A study of Homo sapiens with 6 samples.

Results

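The genes described here are the listed enzymes of drug and steroid metabolism in CAOV2 cells: cytochrome P450 enzymes (CYP), family 1 aldo-keto reductases (AKR1), carboxylesterases (CES), family 2 UDP-glucuronosyltransferases (UGT2), glutathione S-transferases (GST) and cytosolic sulfotransferases (SULT). They were picked by gene symbol, leaving out CYP51A1, pseudogenes and GSTCD, which gave 53 of the 17211 listed genes: 20 CYP, 9 AKR1, 2 CES, 6 UGT2, 11 GST and 5 SULT genes. GENCODE release 29 holds 118 protein-coding genes with such names. The others, including all 9 UGT1A genes, CYP3A4, CYP2D6 and CES1, were not analysed here. CYP4F12 and CYP4F3 were known to differ in this contrast when the group was put together, so every count over it is a description and none is a test of the group.

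CAOV2 is a human ovarian cancer cell line, although the titles also call the cells primary. Cells were transfected with 100 pmol of siRNA against YAP (siYAP, 3 libraries) or of a non-targeting control (siNT, 3 libraries) and collected at day 3. Both groups received 6 uL of the lipid reagent Lipofectamine RNAiMAX, with 2 days of transfection listed for every library. Libraries were made from mRNA with a stranded kit. The siYAP and siNT siRNAs are different commercial products. What YAP depletion did and what the siRNAs did besides cannot be told apart. The labels call the libraries biological replicates without saying whether the cultures were separate, so the errors measure the spread between these libraries.

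The values are normalized read counts, the reads of a gene divided by 1 size factor per library. YAP1, the targeted gene, was at 278, 327 and 294 normalized counts in siYAP, against 6221, 5801 and 5955 in siNT. Between 25478595 and 31790340 reads per library lie behind the values. Of 17200 genes tested with limma on log2(value + 1), 4926 were called higher in siYAP and 4841 lower at an adjusted p under 0.05. With equal totals these counts were 6050 and 3700. Among 7 measured ovarian carcinoma markers PAX8, MUC16 and FOLR1 averaged 4.74 to 17.1 normalized counts in siYAP and 5.90 to 28.8 in siNT, and none of these 3 was called. KRT7 (11686 in siYAP, 22847 in siNT) and MECOM (466 in siYAP, 892 in siNT) were lower, and CRABP2 (846 in siYAP, 453 in siNT) and EPCAM (838 in siYAP, 501 in siNT) were higher.

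Drug metabolism runs in stages. P450 enzymes, reductases and esterases first add or uncover a reactive group on a lipophilic compound, with POR passing electrons to the microsomal P450 enzymes. Transferases then attach glucuronic acid, glutathione or sulfate, and efflux pumps carry the conjugates out of the cell. The same families also act on steroids, bile acids, retinoids, vitamin D and eicosanoids, and many members are best known from liver and intestine.

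Most members were higher in siYAP. Of the 52 members tested, 35 were called higher (67.3%, against 28.6% of all genes) and 6 lower (11.5%, against 28.1%). The other 11 were not called; over all genes 56.8% were called in either direction. A rise of at least 2-fold was called in 18 members (6.31% of all genes) and a fall of that size in none (2.55%). In 33 members all siYAP libraries lay above all siNT libraries (30.9% of all genes), and in 6 they lay below (30.6%). GSTA2, at 0 in every siNT library, passed the filter through siYAP alone. It could not have been called lower, and it is among the members counted as higher here. UGT2B10, at 0 in siNT replicate 3 and also counted as higher, needed siYAP to pass the filter. The median log2 fold change was 0.67 over the members and 0.00 over all genes tested. CYP2W1, an orphan P450, was the 1 member left untested, at 0.906, 0 and 2.85 normalized counts in siYAP and 0, 1.07 and 0 in siNT.

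Members were also counted by level. Among the 30 members averaging at least 100 normalized counts, 20 were called higher and 6 lower (66.7% and 20%). In all genes at that level, 32.5% were higher and 36.5% lower. Among the 22 tested members under 100, 15 were higher and none lower, against 20.8% and 11.4% of all genes under 100. Of the 18 members that rose at least 2-fold, 14 averaged under 100, so the largest ratios rest on few reads. Only 4 members at or above 100 rose that much: CYP2U1, CYP1A1, AKR1C2 and AKR1C3.

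**Figure D1:**
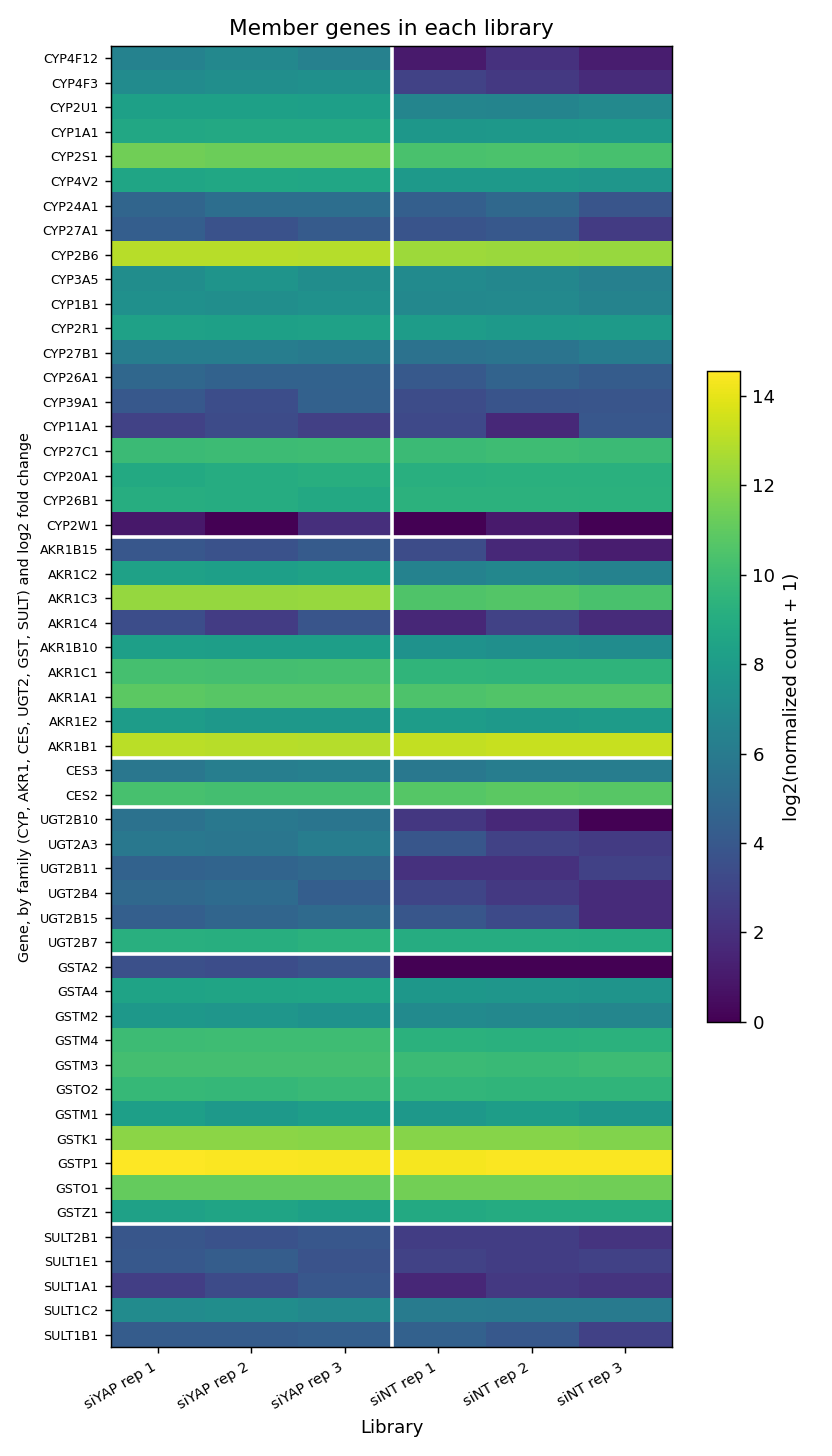
Each row is a member gene and each column a library, siYAP left and siNT right, with log2(normalized count + 1) as colour. White lines separate the families and the groups. GSTP1, CYP2B6 and AKR1B1 are bright in all 6 libraries, while CYP4F12, CYP4F3, 5 of the UGT2 genes and GSTA2 are darker in the siNT columns.

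Fatty acid and eicosanoid P450 enzymes were higher in all 4 listed cases, against 28.6% of all genes. CYP4F12, which hydroxylates arachidonic acid and other fatty acids, had 87.9, 110 and 83.7 normalized counts in siYAP, against 1.05, 3.21 and 1.21 in siNT. The siNT values stand for 5 reads over 3 libraries, and the siYAP values for 296. Its log2 fold change was 5.14 with a standard error of 0.322, or 5.77 with a pseudocount of 0.1. CYP4F3, the leukotriene B4 hydroxylase, had 128, 147 and 160 in siYAP, against 6.28, 4.28 and 2.42 in siNT (log2 4.84, standard error 0.264). For both genes the siNT libraries were near the floor and the siYAP libraries far above it. CYP2U1, another fatty acid hydroxylase, had 304, 302 and 297 in siYAP, against 98.4, 95.1 and 115 in siNT (log2 1.55). CYP4V2, a fatty acid hydroxylase of eye and other tissues, averaged 395 ± 16.4 in siYAP and 219 ± 17.9 in siNT (SD, n = 3 each; log2 0.85).

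CYP4F3 (GRCh38 chromosome 19, 15640897 to 15662825, plus strand) and CYP4F12 (15672757 to 15697174, plus strand) are neighbours with no other listed gene between them. Positions here come from GENCODE release 29, looked up by gene ID, while the submitters' processing notes name hg19. Of all 50-base words in the transcripts of CYP4F12, 1.97% occur in transcripts of other genes, mostly of the pseudogene CYP4F24P. For CYP4F3 the share is 8.64%, mostly with CYP4F2, which was not analysed here. The read length is not given in the sources used here, so such shares only rank how much of a gene could be confused with a relative.

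The 250 bases before the start of CYP4F3 in the RefSeq promoter table (GRCh38.p14, plus strand, chr19:15641062-15641311), are shown because the mean of the gene was 33.5-fold higher in siYAP and because the window holds AAAGTCC, a motif of HNF4 factors, at a pair of sites. Capitals mark both matches, which are read on the other strand, with first bases at -144 and -53 from the start.
CYP4F3: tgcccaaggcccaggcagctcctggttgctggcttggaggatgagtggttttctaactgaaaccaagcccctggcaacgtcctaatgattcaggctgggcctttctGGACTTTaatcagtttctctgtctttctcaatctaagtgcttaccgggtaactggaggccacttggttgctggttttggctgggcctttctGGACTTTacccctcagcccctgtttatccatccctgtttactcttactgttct

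The 3 listed P450 enzymes best known for foreign compounds were all higher, against 28.6% of all genes. CYP2B6, which activates cyclophosphamide, was the most abundant P450 gene per kilobase of exon. Its normalized counts were 8152, 8017 and 7829 in siYAP, against 5383, 5335 and 5067 in siNT (log2 0.60, standard error 0.0426). It supplied 54.3% of the summed P450 counts in siYAP and 53.0% in siNT. Its pseudogene neighbour CYP2B7P, which holds most of the words that CYP2B6 shares, averaged 28.7 in siYAP and 22.5 in siNT. CYP1A1, the classic target of the aryl hydrocarbon receptor, had 427, 435 and 435 in siYAP, against 204, 215 and 225 in siNT (log2 1.01). CYP3A5, a broad drug oxidase, averaged 152 ± 24.5 in siYAP and 101 ± 21.6 in siNT (SD, n = 3 each; log2 0.60).

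CYP2S1, an extrahepatic P450 without a settled role, was second in level per kilobase. It had 2693, 2521 and 2451 normalized counts in siYAP, against 1324, 1368 and 1283 in siNT (log2 0.95, standard error 0.0512). Levels per kilobase were 889 in siYAP and 461 in siNT for CYP2S1, and 2125 in siYAP and 1398 in siNT for CYP2B6. The orphan CYP20A1 fell slightly, to 507 ± 46.6 in siYAP, against 589 ± 9.49 in siNT (SD, n = 3 each; log2 -0.22). That call was lost under 3 of 16 alternatives: equal totals (log2 -0.13), the fit without siYAP replicate 1 (log2 -0.15) and limma without trend and robust fit (log2 -0.22).

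Steroid and sterol P450 enzymes were mostly low, and 1 of 4 was called (25%, against 56.8% of all genes in either direction). CYP1B1, which hydroxylates oestradiol, averaged 155 ± 11.7 in siYAP and 105 ± 12.4 in siNT (SD, n = 3 each; log2 0.56). It overlaps exons of RMDN2 on the other strand. CYP11A1, CYP27A1 and CYP39A1, which cut or hydroxylate cholesterol and oxysterols, averaged between 6.98 and 16.0 in siYAP and between 8.34 and 11.8 in siNT, with overlapping groups.

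The vitamin A and D enzymes went both ways. CYP2R1, which carries out the first hydroxylation of vitamin D, averaged 318 ± 5.06 in siYAP and 245 ± 12.9 in siNT (SD, n = 3 each; log2 0.37). CYP24A1, which degrades vitamin D, had 25.4, 37.5 and 37.1 in siYAP, against 19.9, 28.9 and 13.3 in siNT. Its groups overlap, and its log2 fold change of 0.71 lost its call under 5 of 16 alternatives. Among these were fits without siYAP replicate 2 (0.61), siYAP replicate 3 (0.62) or siNT replicate 3 (0.44). CYP26B1, a retinoic acid hydroxylase, fell to 498 ± 46.4 in siYAP, against 642 ± 8.49 in siNT (SD, n = 3 each; log2 -0.37). CYP27B1, which makes active vitamin D and overlaps METTL1, the retinoic acid hydroxylase CYP26A1 and the retinol desaturase CYP27C1 were not called, at log2 values of 0.37, 0.36 and 0.03. CYP27B1 was called without siNT replicate 3 (log2 0.56) and with equal totals (log2 0.45).

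**Figure D2:**
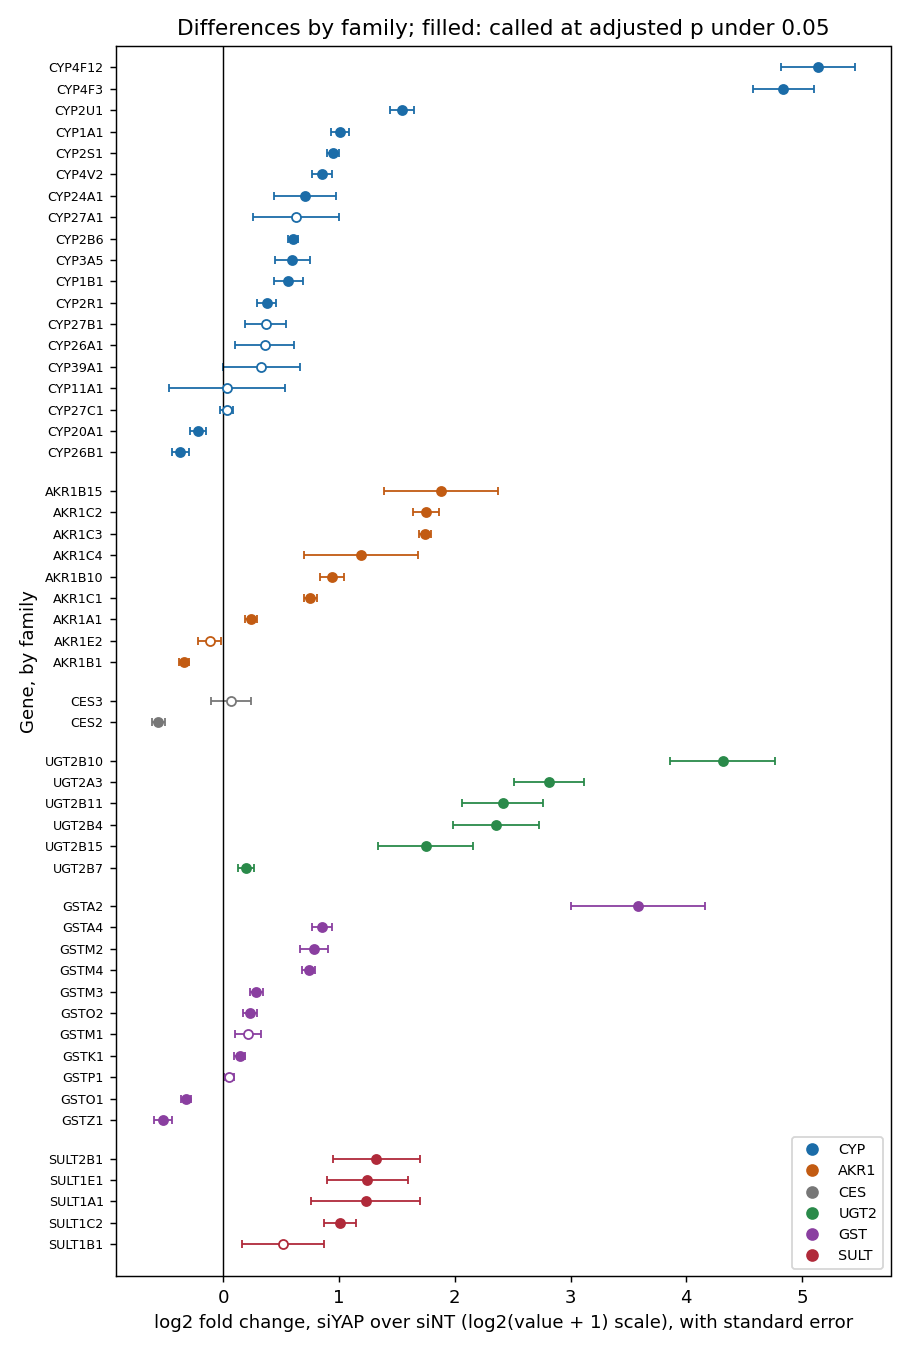
The x axis is the log2 fold change of siYAP over siNT on the log2(value + 1) scale, and bars are standard errors. Filled points were called. Of the 52 points, 35 filled ones lie right of 0 and 6 left of it, and the UGT2 genes other than UGT2B7 lie between 1.75 and 4.32.

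Aldo-keto reductases use NADPH to reduce aldehydes, ketosteroids and prostaglandins. Of 9 listed AKR1 genes, 7 were called higher (77.8%, against 28.6% of all genes) and 1 lower (11.1%, against 28.1%). AKR1C3, which makes testosterone and prostaglandin F, had 4880, 4887 and 5010 normalized counts in siYAP, against 1489, 1584 and 1351 in siNT (log2 1.74, standard error 0.0532). AKR1C2, which inactivates dihydrotestosterone, had 315, 291 and 337 in siYAP, against 85.9, 105 and 88.2 in siNT (log2 1.75, standard error 0.110). AKR1C1, which inactivates progesterone, had 1231, 1169 and 1207 in siYAP, against 741, 698 and 700 in siNT (log2 0.75, standard error 0.0569). No groups overlapped in these 3 genes. AKR1C4, the hepatic member, averaged 9.41 in siYAP and 3.64 in siNT with overlapping groups, and its log2 of 1.19 lost its call under 8 of 14 alternatives. Among these were fits without siYAP replicate 1 (1.11), siYAP replicate 3 (0.92), siNT replicate 1 (0.96) or siNT replicate 3 (1.03).

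The AKR1C genes lie together on chromosome 10 with AKR1E2, an anhydrofructose reductase gene, which was not called (log2 -0.12). AKR1C1 and AKR1C2 are the closest pair: 38.1% of the 50-base words of AKR1C2 also occur in AKR1C1, and 28.3% of those of AKR1C1 in AKR1C2. Reads that lie wholly within these stretches cannot be assigned to either gene by sequence. How many there were depends on the read length, and how the counting treated them is not given in the sources used here. For AKR1C3 the share found in any other gene is 4.53%.

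The 250 bases before the starts of AKR1C1 (GRCh38.p14, plus strand, chr10:4963165-4963414) and AKR1C2 (minus strand, chr10:5003858-5004107) are shown because the windows were 96.5% identical while the log2 fold changes of the genes were 0.75 and 1.75. Neither window holds any of the 6 motifs searched, so no letters are in capitals.
AKR1C1: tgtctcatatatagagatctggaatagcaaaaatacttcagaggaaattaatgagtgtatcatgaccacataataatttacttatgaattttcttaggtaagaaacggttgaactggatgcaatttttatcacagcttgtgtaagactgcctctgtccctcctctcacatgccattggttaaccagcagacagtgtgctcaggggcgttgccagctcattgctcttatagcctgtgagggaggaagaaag
AKR1C2: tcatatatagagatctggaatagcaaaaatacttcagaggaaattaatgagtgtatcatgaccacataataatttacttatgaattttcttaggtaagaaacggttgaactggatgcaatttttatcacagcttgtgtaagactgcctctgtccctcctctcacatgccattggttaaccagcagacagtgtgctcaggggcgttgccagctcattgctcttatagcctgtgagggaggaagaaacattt

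AKR1B1, aldose reductase, was the most abundant AKR1 gene per kilobase and fell. It had 8323, 8085 and 7684 normalized counts in siYAP, against 9692, 10472 and 10305 in siNT (log2 -0.34, standard error 0.0443). Its share of the summed AKR1 counts was 47.8% in siYAP and 70.7% in siNT, and that of AKR1C3 was 29.3% in siYAP and 10.3% in siNT. The neighbouring AKR1B10, a reductase of retinal and aliphatic aldehydes, rose to 292 ± 5.14 in siYAP, against 152 ± 18.3 in siNT (SD, n = 3 each; log2 0.94). AKR1B15, next to it, had 14.5, 11.8 and 17.1 in siYAP, against 9.42, 2.14 and 1.21 in siNT (log2 1.88). Without siNT replicate 1 that value was 2.54. AKR1A1, aldehyde reductase, was slightly higher (log2 0.24).

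Carboxylesterases hydrolyse ester drugs, and CES2 converts irinotecan to its active form. CES2 fell, with 1256, 1176 and 1157 normalized counts in siYAP, against 1663, 1898 and 1750 in siNT (log2 -0.56, standard error 0.0568). It had the lowest log2 fold change of the 52 members tested. CES3, beside it on chromosome 16, had 54.4, 74.0 and 80.8 in siYAP, against 55.5, 71.6 and 71.3 in siNT, with overlapping groups.

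UDP-glucuronosyltransferases of family 2 attach glucuronic acid to steroids, bile acids, fatty acids and drugs. All 6 listed genes were called higher in siYAP, against 28.6% of all genes, with a median log2 fold change of 2.38. UGT2B10, which glucuronidates nicotine, had 43.5, 55.3 and 50.4 normalized counts in siYAP, against 4.19, 2.14 and 0 in siNT (log2 4.32, standard error 0.453). Its value was 3.65 without siNT replicate 3 and 5.65 with a pseudocount of 0.1. With 0 in siNT replicate 3, UGT2B10 needed siYAP to pass the filter and had little room to be called lower. UGT2A3, an enzyme of intestine and liver, had 55.3, 52.3 and 72.3 in siYAP, against 13.6, 6.41 and 4.83 in siNT (log2 2.81). The siYAP libraries stood above every siNT library in both genes.

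UGT2B4, which conjugates bile acids, had 28.998, 32.6 and 19.0 normalized counts in siYAP, against 7.33, 4.28 and 2.42 in siNT (log2 2.36). UGT2B11 had 22.7, 24.7 and 29.5 in siYAP, against 3.14, 3.21 and 6.04 in siNT (log2 2.41). UGT2B15, which conjugates androgens, had 19.9, 25.7 and 31.4 in siYAP, against 13.6, 8.55 and 2.42 in siNT (log2 1.75). Without siNT replicate 3 the last value was 1.15. In all 3 genes the lowest siYAP library lay above the highest siNT library.

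UGT2B7, which conjugates morphine and other opioids, was the most abundant per kilobase and had the smallest log2 fold change of the 6. It had 588, 551 and 626 normalized counts in siYAP, against 520, 519 and 497 in siNT (log2 0.20, standard error 0.0691). This call was lost without siYAP replicate 3 (log2 0.15) and without siNT replicate 3 (log2 0.18). UGT2B7 made up 75.8% of the summed UGT2 counts in siYAP and 95.0% in siNT. Per kilobase of exon it stood at 260 in siYAP and 227 in siNT, while the other 5 genes ranged from 10.7 to 25.8 in siYAP and from 1.09 to 3.94 in siNT.

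**Figure D3:**
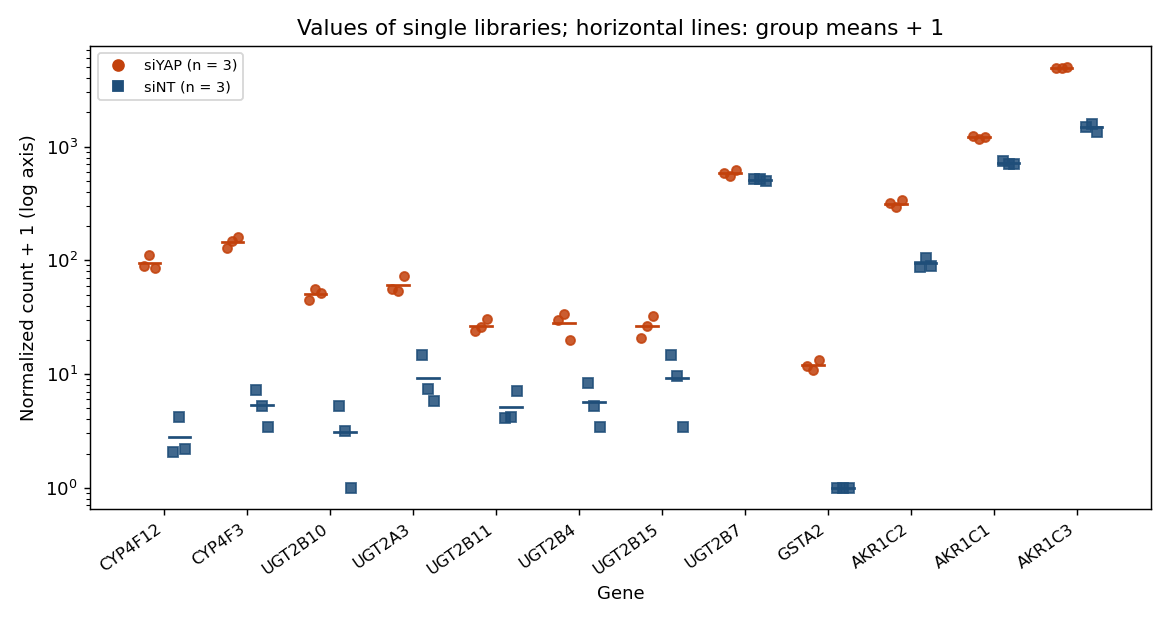
Each point is 1 library, siYAP left and siNT right for each gene, as normalized count + 1 on a log axis, with lines at the group means + 1. CYP4F12, CYP4F3, the low UGT2 genes and GSTA2 separate widely, UGT2B7 narrowly, and the AKR1C genes separate at higher levels.

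The UGT2 genes lie in a row on chromosome 4 from 68646630, the start of UGT2B15, to 69526014, the end of UGT2B4. SULT1B1 and SULT1E1 follow, and SULT1E1 ends at 69860152. The only other listed gene in this stretch, ENSG00000248763, was not called (log2 0.84). UGT2B7 sits between UGT2A3 and UGT2B11, with rises of 2.81 and 2.41 on the log2 scale on either side of its 0.20. Words shared with other genes made up 30.9% of UGT2B10, 36.4% of UGT2B11 and 27.8% of UGT2B15, so these 3 are uncertain as separate genes. For UGT2B7, UGT2B4 and UGT2A3 the shares were 5.38%, 3.14% and 5.17%.

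The 250 bases before the starts of UGT2B10 (GRCh38.p14, plus strand, chr4:68815744-68815993), UGT2B11 (minus strand, chr4:69214749-69214998) and UGT2B7 (plus strand, chr4:69096224-69096473) are shown to compare genes with mean ratios of 23.6 and 6.20 with the abundant gene, whose ratio was 1.15. Capitals mark matches to TATAAA and to TGACNNNGC, an antioxidant response element, here read on the other strand.
UGT2B10: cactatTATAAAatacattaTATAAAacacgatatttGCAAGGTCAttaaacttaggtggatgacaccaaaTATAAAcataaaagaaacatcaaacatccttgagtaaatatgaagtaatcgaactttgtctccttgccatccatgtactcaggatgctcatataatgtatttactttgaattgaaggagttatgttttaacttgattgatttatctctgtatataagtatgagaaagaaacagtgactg
UGT2B11: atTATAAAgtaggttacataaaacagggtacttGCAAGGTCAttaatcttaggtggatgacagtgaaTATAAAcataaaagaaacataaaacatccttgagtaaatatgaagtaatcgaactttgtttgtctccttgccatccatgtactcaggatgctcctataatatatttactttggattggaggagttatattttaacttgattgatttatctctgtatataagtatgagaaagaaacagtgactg
UGT2B7: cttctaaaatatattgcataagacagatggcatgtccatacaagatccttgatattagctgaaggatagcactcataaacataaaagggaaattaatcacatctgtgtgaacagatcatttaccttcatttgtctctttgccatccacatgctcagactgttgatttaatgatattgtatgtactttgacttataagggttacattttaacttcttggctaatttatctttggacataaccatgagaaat

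The windows of UGT2B10 and UGT2B11 were 90.2% identical, and each was about equally far from that of UGT2B7 (64.6% and 65.1%). UGT2B10 and UGT2B11 share the antioxidant response element letters, with first bases at -213 and -217 from the start, and the window of UGT2B7 holds none of the 6 motifs.

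**Figure D4:**
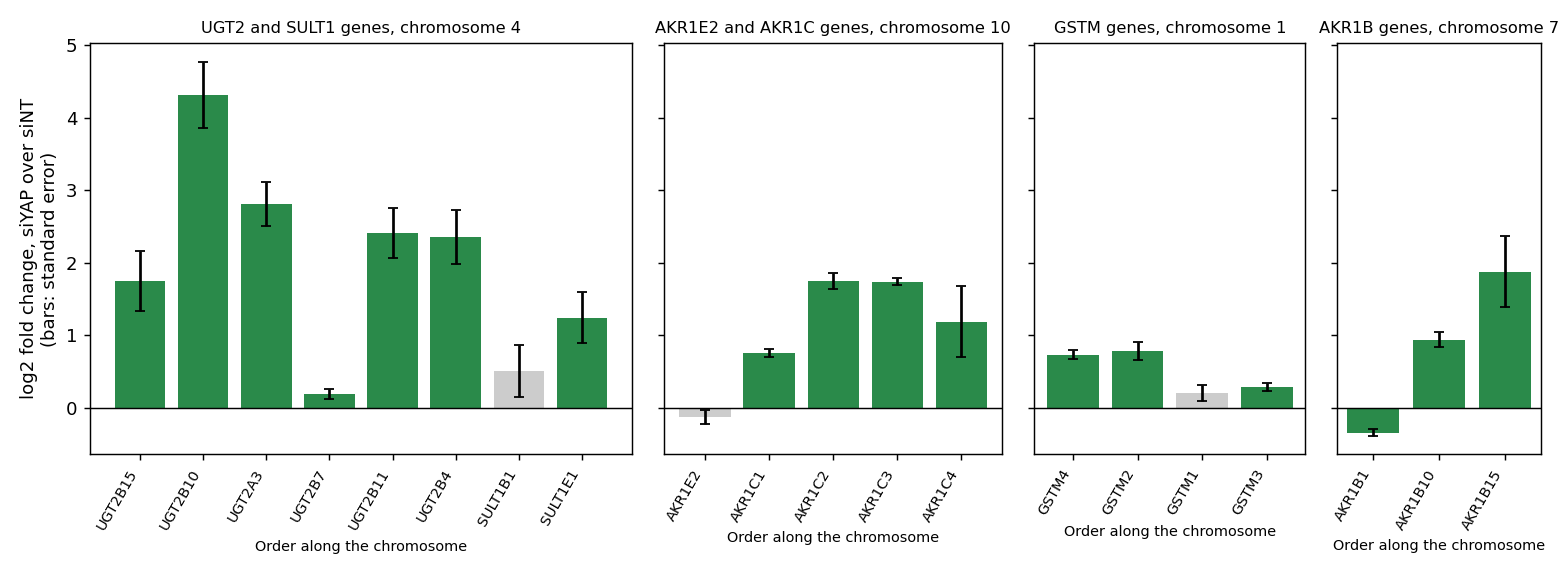
Members are ordered along 4 chromosomal clusters on the x axis, with the log2 fold change of siYAP over siNT as bars and standard errors; grey bars were not called. UGT2B7 (0.20) stands between taller neighbours, and AKR1B1 (-0.34) is below 0 beside AKR1B10 and AKR1B15.

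Glutathione S-transferases couple glutathione to electrophiles. Of 11 listed genes 7 were called higher (63.6%, against 28.6% of all genes) and 2 lower (18.2%, against 28.1%). The median log2 fold change was 0.23. GSTP1, the most abundant member of all per kilobase, had 24032, 22912 and 22099 normalized counts in siYAP, against 21229, 22942 and 22607 in siNT. The groups overlap, and it was not called (log2 0.05, standard error 0.0424), though it was with equal totals (log2 0.14). GSTP1 held 68.4% of the summed GST counts in siYAP and 69.2% in siNT.

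Both listed alpha class genes were called higher, against 28.6% of all genes. However, GSTA2 passed the filter through siYAP alone and could not have been called lower. GSTA2, an alpha class enzyme best known from liver, had 10.9, 9.87 and 12.4 normalized counts in siYAP and 0 in all 3 siNT libraries. Against a floor of 3 reads over the siNT group it was at least 9.96-fold higher. Of its words 18.4% also occur in GSTA1, which was not analysed here. GSTA4, which clears hydroxynonenal, averaged 361 ± 10.2 in siYAP and 199 ± 10.7 in siNT (SD, n = 3 each; log2 0.86).

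In the mu class, GSTM4 (log2 0.74), GSTM2 (log2 0.78) and GSTM3 (log2 0.29) rose and GSTM1 was not called (log2 0.21). GSTM1 was called without siYAP replicate 2 or siNT replicate 2 (log2 0.33 in each case) and with equal totals (log2 0.30). GSTM1, GSTM2 and GSTM4 overlap in the annotation on the same strand, and 49.7% of the words of GSTM1 occur in other genes, so their values are uncertain as separate genes. In the omega class, GSTO1, a reductase of dehydroascorbate, fell to 2245, 2252 and 2198 in siYAP, against 2832, 2844 and 2704 in siNT (log2 -0.32). Its neighbour GSTO2 rose slightly (log2 0.23). GSTK1 of mitochondria and peroxisomes was higher by a log2 of 0.14 and lost that call under 3 of 16 alternatives, among them without siYAP replicate 2 (0.13) and without siNT replicate 3 (0.11). GSTZ1, which acts in tyrosine breakdown and overlaps POMT2 on the other strand, fell to 333 ± 27.6 in siYAP, against 477 ± 20.2 in siNT (SD, n = 3 each; log2 -0.52).

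Sulfotransferases add sulfate from the donor PAPS to phenols and steroids. They were low, and 4 of 5 were called higher (80%, against 28.6% of all genes). SULT1C2, the most abundant, had 131, 142 and 111 normalized counts in siYAP, against 66.0, 59.9 and 62.8 in siNT (log2 1.01, standard error 0.139). SULT1E1, the oestrogen sulfotransferase, had 15.4, 18.8 and 12.4 in siYAP, against 6.28, 5.34 and 6.04 in siNT (log2 1.24). SULT2B1, which sulfates cholesterol, had 13.6, 11.8 and 14.3 in siYAP, against 5.24, 5.34 and 3.63 in siNT (log2 1.32). In these 3 genes every siYAP library lay above every siNT library. SULT1A1, the phenol sulfotransferase, averaged 9.53 in siYAP and 3.33 in siNT (log2 1.23) and lost its call under 4 of 14 alternatives. These were DESeq2 (1.52) and fits without siYAP replicate 2 (1.23), siYAP replicate 3 (0.92) or siNT replicate 1 (1.00). Words shared with other genes made up 14.9% of SULT1A1 and 20% of SULT1E1. SULT1B1 was not called, at 18.1, 17.8 and 19.97 in siYAP and 22.0, 15.0 and 6.04 in siNT. It was called without siNT replicate 1 (log2 0.89).

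Promoters of 44 members were searched for 6 motifs on both strands, from 250 bases before to 50 after the start, beside all 35116 promoters in the table. Some members have several promoters, and a member counted as a match if any of its promoters matched. The share over all promoters is per single promoter, so the percentages are not like for like and those of members are raised by this. Letters for the TEAD factors that YAP binds (GGAATG) were found in 6 members (13.6%) and 14% of all promoters. The antioxidant response element (TGACNNNGC) was found in 9 members (20.5%, against 13.3%). The motif of the aryl hydrocarbon receptor (TNGCGTG) was found in 3 members (6.82%, against 5.51%), none of them CYP1A1. Letters of the HNF1 motif (GTTAAT) occurred in 3 members (6.82%, against 6.88%), among them GSTA2. The HNF4 letters (AAAGTCC) occurred in 4 members (9.09%, against 3.71%). TATAAA occurred in 12 members (27.3%, against 11.5%). In a shorter window, from 150 bases before to 50 after the start, the antioxidant response element was found in 5 members (11.4%, against 9.86%), the HNF4 letters in 2 (4.55%, against 2.42%) and TATAAA in 8 (18.2%, against 7.65%). There the TEAD letters were found in 5 members (11.4%, against 9.38%), the aryl hydrocarbon receptor motif in 2 (4.55%, against 3.77%) and the HNF1 letters in 1 (2.27%, against 4.21%). No motif contains the letters of another, and matches describe only these windows.

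Genes that serve the same pathway did not all move with the enzymes. Of 12 redox partner genes 4 were higher and 4 lower (33.3% each), near the shares over all genes (28.6% higher and 28.1% lower). POR, named for its role as electron donor, was slightly lower (log2 -0.14). CYB5R4, a cytochrome b5 reductase, fell (log2 -0.54) and CYB5A, cytochrome b5 itself, rose (log2 0.53). Of 13 measured xenobiotic receptors and their partners 3 were higher (23.1%) and 6 lower (46.2%). NR1I2, NR1I3 and NR1H4, receptor genes also chosen for this list, were not analysed here. The fatty acid receptor gene PPARA rose (log2 1.14), while RXRA, the shared partner of many nuclear receptors, and NR1H3, an oxysterol receptor gene, fell (log2 -0.48 and -0.54). AHR and NFE2L2, which encodes NRF2, were lower (log2 -0.22 and -0.38), named because they govern CYP1A1 and many GST genes. Besides PPARA, the genes of this list called higher were ARNT (log2 0.24) and AHRR (log2 0.45).

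Co-substrate supply was also examined. Of 17 such genes 9 were higher (52.9%, against 28.6% of all genes) and 4 lower (23.5%, against 28.1%). The sulfate transporter gene SLC26A1 averaged 431 ± 22.4 normalized counts in siYAP and 111 ± 9.99 in siNT, and SLC26A2 averaged 7276 ± 352 in siYAP and 2699 ± 151 in siNT (SD, n = 3 each). PAPSS2, which makes PAPS, averaged 5831 ± 208 in siYAP and 2781 ± 17.1 in siNT (SD, n = 3 each; log2 1.07). UGDH, which makes UDP-glucuronic acid, was not called (log2 0.04), and GCLC, which limits glutathione synthesis, rose (log2 0.45).

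Transporters of drugs and organic ions were higher in 14 of 18 cases (77.8%, against 28.6% of all genes) and lower in 1 (5.56%, against 28.1%). The organic anion carriers SLCO2B1 (log2 2.27) and SLCO2A1 (log2 2.21) and the efflux family gene ABCC6 (log2 2.06) rose most. ABCC6 has close pseudogene copies, so its value is uncertain. ABCB1, the multidrug pump P-glycoprotein, averaged 1147 ± 52.9 in siYAP and 437 ± 16.6 in siNT (SD, n = 3 each). ABCG2, another multidrug pump, was not called (log2 -0.01), and SLCO4A1 fell (log2 -0.86).

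Enzymes outside the 6 families went both ways. Of 19 other oxidation, reduction and hydrolysis genes 8 were higher (42.1%, against 28.6% of all genes) and 4 lower (21.1%, against 28.1%). FMO5, a flavin monooxygenase (log2 1.74), the epoxide hydrolase EPHX2 (log2 1.66) and the monoamine oxidase MAOA (log2 1.28) rose. AADAC, an esterase of liver and intestine, averaged 6.30 ± 1.34 normalized counts in siYAP and 21.5 ± 5.29 in siNT (SD, n = 3 each; log2 -1.62), the only fall of at least 2-fold called in that list. Of 16 other conjugation genes 7 were higher (43.8%) and 2 lower (12.5%). NAT2, counted as higher there, was at 0 in siNT replicate 1 and needed siYAP to pass the filter. The methyltransferase HNMT (log2 1.23) and the acetyltransferase NAT1 (log2 1.03) rose, and the sulfotransferase TPST1 fell (log2 -0.82). Of 17 NRF2 targets 7 were higher (41.2%) and 3 lower (17.6%), led by SLC7A11 (log2 1.96), HMOX1 (log2 1.29) and ME1 (log2 1.03). Of 6 AHR targets 5 were higher (83.3%), led by NEDD9 (log2 1.51), NQO1 (log2 0.75) and ALDH3A1 (log2 0.64). These lists share genes, NQO1 among them, so their counts are not independent.

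**Figure D5:**
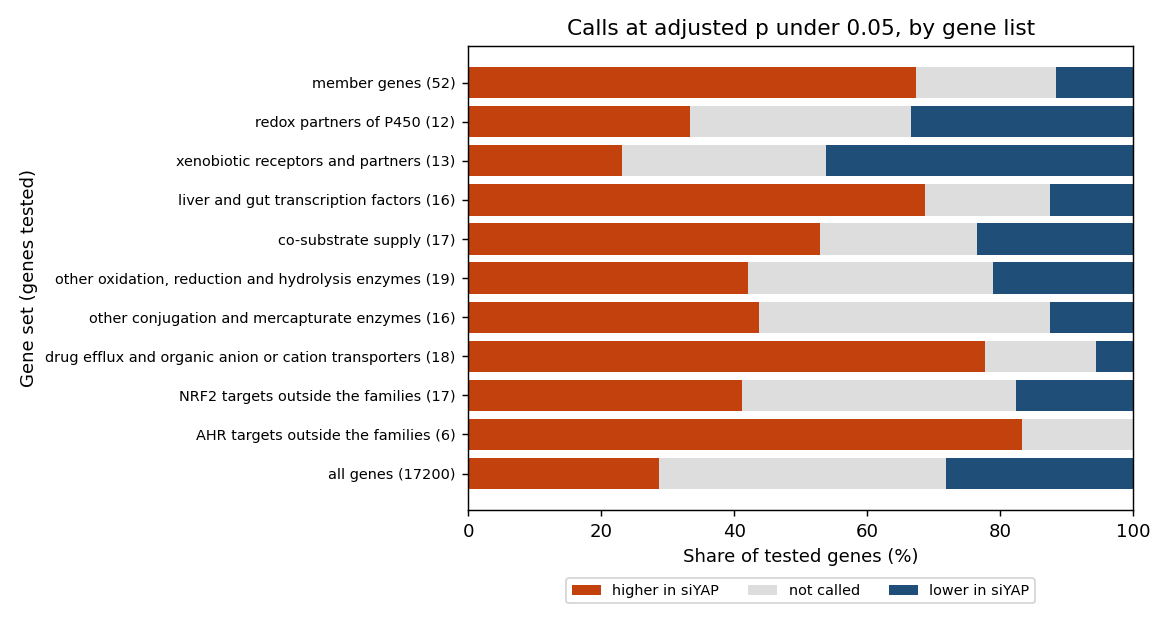
Bars give the share of tested genes called higher, not called or called lower in siYAP, for the member genes on top, the pathway lists and all genes at the bottom. The member genes (67.3% higher) and the transporters (14 of 18) lean to the higher side. The measured xenobiotic receptors and their partners (3 of 13 higher, 6 lower) do not.

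Liver and gut genes outside these families were mostly higher in the same libraries. Of 16 measured liver and gut transcription factor genes 11 were higher (68.8%, against 28.6% of all genes) and 2 lower (12.5%, against 28.1%). NR5A2 (log2 1.67), HNF4G (log2 1.14) and NR0B2 (log2 1.03) rose most, and FOXA2 (log2 -0.52) and CEBPB (log2 -0.47) fell. HNF4A averaged 6889 ± 112 normalized counts in siYAP and 3621 ± 191 in siNT (SD, n = 3 each). All 7 measured hepatocyte markers were higher, with sums per library between 3811 and 3904 in siYAP and between 376 and 491 in siNT. Most of that sum was FGB, which averaged 2671 in siYAP and 337 in siNT, while ALB averaged 66.1 and 8.69. All 7 enterocyte markers were higher as well, with sums from 32071 to 32860 in siYAP and from 8562 to 9253 in siNT. Nearly all of that sum was CDH17 (18659 in siYAP, 5754 in siNT) and VIL1 (13249 in siYAP, 3120 in siNT). Of these 14 markers APOB alone was at 0 in every siNT library, and none was at 0 in all 6. APOB passed the filter through siYAP alone and could not have been called lower. APOA4, at 1.05, 2.14 and 0 in siNT, also needed siYAP to pass the filter. The part of these liver and gut genes in the rise of the drug metabolism genes was not tested. In bulk RNA a larger share of cells that express such genes and more RNA per cell cannot be told apart.

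Markers of other cell types went in both directions, where 28.6% of all genes were called higher and 28.1% lower. Of 4 immune markers 3 were lower and 1 higher, with sums of 143 to 160 normalized counts in siYAP and 198 to 214 in siNT. Of 5 fibroblast markers 4 were higher and 1 lower, with sums of 14297 to 14803 in siYAP and 5594 to 6387 in siNT, most of it LUM. The endothelial marker ESAM was lower. PTPRC, CD3E, DCN, PECAM1, CDH5 and VWF, also chosen as markers of these cell types, were not analysed here.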

How the data were processed

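RNA from 3 siYAP and 3 siNT libraries of CAOV2 cells was sequenced. The authors deposited normalized counts per gene, a signal made from read counts divided by 1 size factor per library. The submitters' processing notes name FastQC, HISAT2, HTSeq and DESeq2 and the builds hg19 and mm9; no source used here gives the strand setting, read length or annotation. Whole reads were recovered from the values: all came out whole within 0.01, and 1 read was worth 0.906 to 1.21 normalized counts.

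Values were tested as log2(value + 1) with limma 3.58.1 (R 4.3.3; trend and robust fit) on genes reaching 1 normalized count in 3 or more libraries. Benjamini-Hochberg adjustment ran over all 17200 genes, and a gene was called at an adjusted p under 0.05. Fold changes of low genes are understated on this scale. The script was tested on simulated data. Alternatives were other scalings, pseudocounts, filters and fits, a replicate block, each library left out, and edgeR 4.0.16 and DESeq2 1.42.0 on the recovered reads.

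Members and gene lists were chosen with earlier results of these data known. Of the 17211 gene IDs, 16743 matched a name or annotation. Words of 50 bases shared between GENCODE transcripts of different genes were counted. Promoters came from RefSeq (GRCh38.p14), matched by symbol. Values in every library are given for members called with at least a 2-fold change and a mean of at least 10 in either group, and for the highest members per kilobase of each family. From each pathway list the called genes with the largest change and a mean of at least 20 are named; others were chosen after their values were seen.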

Additional observations from a re-analysis of the deposited data

How the results depend on the processing

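Over the alternatives run on all genes, 30 members (without siYAP replicate 3) to 38 (with equal totals) were called higher, and 5 or 6 lower. Of the 35 members called higher 30 kept their call under every alternative that tested them, as did 5 of the 6 called lower. Leaving out each library gave 30 to 36 members higher and 5 to 6 lower, and 4376 to 4942 of all genes higher and 4380 to 4876 lower. With the replicate number as a block, 34 members were higher and 6 lower. Same-numbered libraries did not deviate together (correlations -0.0924, -0.00151 and 0.0016 over 15619 genes), and differently numbered ones ranged from -0.0849 to 0.0875. With 3 libraries per group this cannot show whether they were prepared in pairs, and the labels do not say. edgeR on the recovered reads called 32 members higher, and DESeq2 also 32. In subsets chosen after seeing the data, 24 of 39 members with at most 10% shared words were higher and 6 lower, and 26 of 39 members with a mean of at least 20 were higher and 6 lower. The sign turned in 2 members that were not called. CYP11A1 was -0.133 without siYAP replicate 2, -0.616 without siNT replicate 2 and -0.241 with DESeq2, against 0.031, and ranged from -0.616 to 0.536 with a library left out. CES3 was -0.049 without siYAP replicate 3 and -0.054 without siNT replicate 1, against 0.066, and ranged up to 0.233 with a library left out. The cause was not tested. The log2 fold change of GSTA2, with no read in siNT, was 3.58, and 6.79 with a pseudocount of 0.1. Depth limits the members with few siNT reads, among them CYP4F12 with 5 and UGT2B10 with 6.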
